A study of Mus musculus with 8 samples.

Results

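The MHC class I presentation genes are 10 genes chosen by name out of the 55335 genes in the count table: H2-K1, H2-D1, B2m, Tap1, Tap2, Tapbp, Psmb8, Psmb9, Psmb10 and Nlrc5. Their RNA was measured in T cells that had entered MC38 tumors (tumor-infiltrating lymphocytes, TILs) and were sorted as CD8+CD44+PD-1+. MC38 is a colon carcinoma line of mice, here grown in C57BL/6 hosts aged 6 to 10 weeks. There were 4 samples from wildtype controls (WT, Lsd1f/f, without Cre) and 4 from mice lacking LSD1 in T cells (KO, Cd4-Cre+Lsd1f/f), so both groups carried the floxed allele, and the labels name no treatment. Cd4-Cre acts while T cells develop in the thymus, so LSD1 was missing from the KO cells before they met the tumor. LSD1, encoded by Kdm1a, removes methyl groups from histone H3 lysine 4 and represses transcription. A WT sample pooled 2 mice, whereas a KO sample was a single animal, and 10000 to 20000 cells were sorted for each. The methods give day 18 after implantation and the design text 14 days.

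MHC class I molecules display peptides from inside the cell to CD8+ T cells, and T cells carry them on their own surface. The immunoproteasome cuts proteins into peptides, the TAP transporter carries the peptides into the endoplasmic reticulum, tapasin holds the empty molecule at the transporter, and a heavy chain with the light chain beta-2 microglobulin then binds a peptide. Interferon-gamma, which activated CD8+ T cells secrete, is a known inducer of most of these genes, and NLRC5 is the transactivator that drives them in lymphocytes.

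WT samples are named S1 to S4 and KO samples S5 to S8, and values are given in that order. Total counts were 11657807 to 30295406 a sample, and the 10 genes together took 0.702% to 0.832% of them. All 10 passed the filter on low counts with at least 523 counts in every sample. The targeted gene Kdm1a, counted over the whole gene, had a mean of 44.9 ± 1.87 CPM in WT against 30.7 ± 4.03 in KO (± SD, n = 4 each, edgeR adjusted p = 0.0163), with no overlap between the groups. Without S2 this adjusted p was 0.0578. CPM here are counts scaled to a common library size with edgeR's TMM factors, and every ± is an SD over 4 samples. The 18 markers of macrophages and other antigen-presenting cells differed between the groups as well, with a summed level of 573 to 1714 CPM in WT and 305 to 429 CPM in KO. None of the 18 was at 0 in all samples of either group, and 13 were called lower in KO. Of the 9 markers of the sorted cells none was at 0, and their sum was 5439 to 5868 CPM in WT and 5124 to 5713 CPM in KO. In such bulk samples fewer cells of a type and less RNA per cell cannot be told apart.

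The genes Tapbp, H2-K1, Psmb9, Tap1, Psmb8, Tap2 and H2-D1 lie on chromosome 17 in the mouse MHC, in this order. Psmb9 and Tap1 face away from each other on opposite strands, and their first exons overlap by 212 bp in GENCODE M21 on GRCm38. Psmb8 follows Tap1 after 495 bp, and Tap2 follows Psmb8 after 2072 bp. B2m is on chromosome 2, from 122147686 to 122153083 on the plus strand. Psmb10, from 105935735 to 105938444 on the minus strand, and Nlrc5, from 94434356 to 94527272 on the plus strand, are both on chromosome 8.

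The stretches before the start sites of H2-K1, B2m and Psmb10 are shown because the heavy and light chain genes had like levels in WT and KO, while Psmb10 was the one member whose samples did not overlap between the groups. They are RefSeq sequences on GRCm38.p6, printed 5′ to 3′ on the gene's own strand and trimmed where an annotated exon begins. H2-K1 is at chr17:34000348-34000597 on the minus strand, B2m at chr2:122147437-122147685 on the plus strand and Psmb10 at chr8:105938445-105938642 on the minus strand. Capitals mark matches, on either strand, to the following strings of letters. The GAAA pair is GAAA and GAAA with 2 bases between, a strict form of the interferon-stimulated response element. CCAAT is the core of the Y box, and TGANNTCA has letters like those of the X2 box. Other forms of these elements were not searched. Whether a TGANNTCA match lies where an X2 box would was not tested.
H2-K1: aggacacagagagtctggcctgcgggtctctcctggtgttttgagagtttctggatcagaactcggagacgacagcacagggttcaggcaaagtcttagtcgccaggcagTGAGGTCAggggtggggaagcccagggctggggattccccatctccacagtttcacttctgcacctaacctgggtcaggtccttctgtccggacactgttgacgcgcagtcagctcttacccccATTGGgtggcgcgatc
B2m: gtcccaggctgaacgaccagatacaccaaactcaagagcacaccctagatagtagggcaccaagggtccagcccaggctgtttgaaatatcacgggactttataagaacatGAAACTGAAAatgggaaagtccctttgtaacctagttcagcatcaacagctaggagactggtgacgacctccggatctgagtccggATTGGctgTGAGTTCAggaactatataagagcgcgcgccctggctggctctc
Psmb10: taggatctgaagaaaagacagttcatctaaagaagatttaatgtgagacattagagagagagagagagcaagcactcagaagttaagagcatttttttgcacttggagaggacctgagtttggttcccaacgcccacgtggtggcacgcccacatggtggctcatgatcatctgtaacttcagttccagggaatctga
B2m held 1 match each to the GAAA pair, CCAAT and TGANNTCA. H2-K1 held CCAAT and TGANNTCA, and Psmb10 held none of the 3 strings. RefSeq windows were matched for 8 of the 10 members, all but Tap2 and Nlrc5. In the 250 bases before the start, CCAAT was found in 6 of the 8 (B2m, Tapbp, H2-K1, Psmb9, Tap1 and H2-D1), against 33.8% of all 32851 promoter windows. TGANNTCA was found in the 3 chain genes B2m, H2-K1 and H2-D1, against 11.9% of all windows. The GAAA pair was found in B2m only, against 2.98% of all windows. A match is a description of letters and no measurement of binding. No match says only that these letters are not in this window, so an element in another form may still be there.

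None of the 10 class I genes was called different between KO and WT at the study's thresholds, a fold change above 1.5 with an adjusted p under 0.01. The same rule called 4.9% of the 15378 genes tested. At an adjusted p under 0.05 and any fold, again 0 of the 10 passed, against 11.3% of all genes. By edgeR's quasi-likelihood test, 3 members had an unadjusted p under 0.05: Psmb10 (0.00642), Nlrc5 (0.0185) and Tap1 (0.0476). The same held for 3774 of all 15378 genes. By DESeq2, 0 of the 10 were called and 1, Psmb10, passed at an adjusted p of 0.05. The fitted log2 fold changes of KO against WT ran from -0.49 for Psmb10 to 0.30 for Nlrc5, 6 above and 4 below 0, with a median of 0.04 against -0.01 over all genes. In 9 of the 10 genes the range of the KO samples overlapped that of the WT samples; groups did not overlap in 17.3% of all genes.

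**Figure D1:**
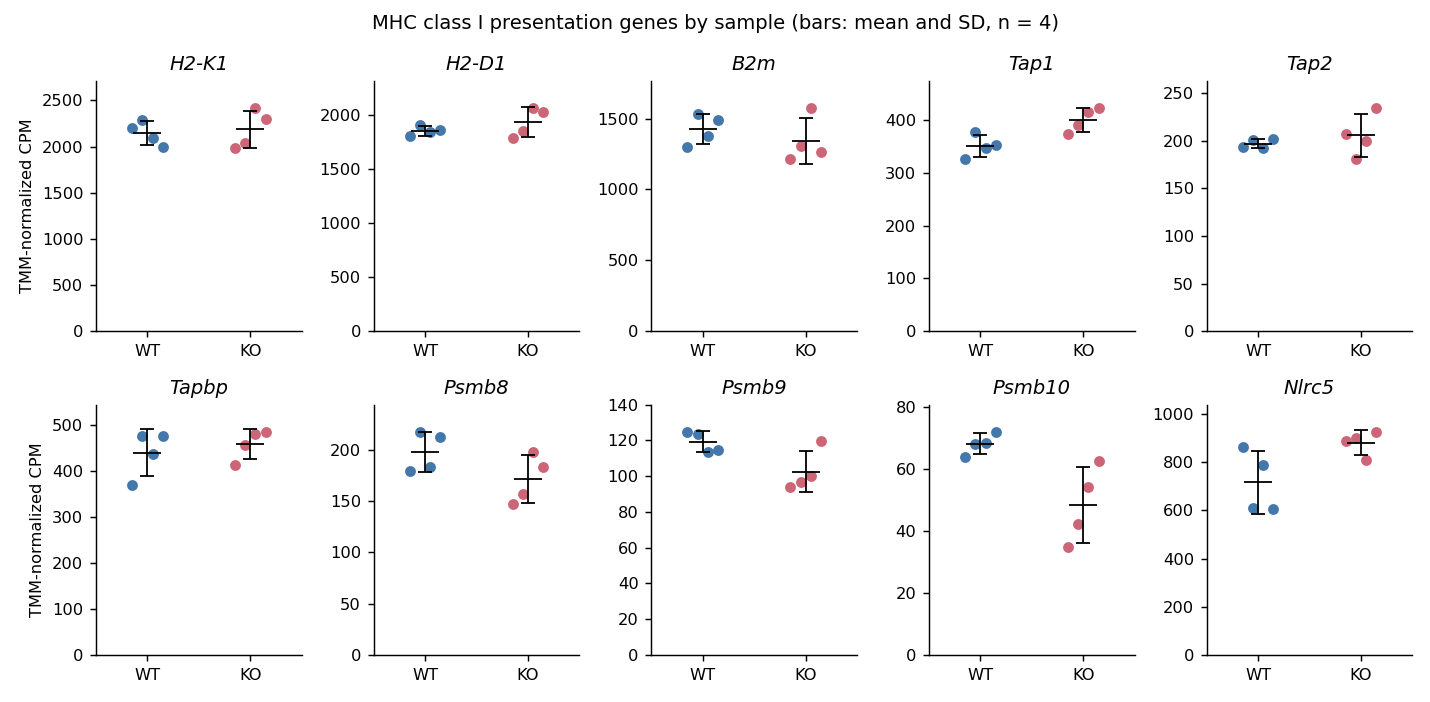
Each panel shows 1 gene, with the TMM-normalized CPM of each sample as a point (WT blue, KO red) and the mean with its SD (n = 4) in black, from 0 upward. The KO points of Psmb10, at 34.9 to 62.7 CPM, all lie below the WT points, at 64.0 to 72.2 CPM, and the points overlap between groups in the other 9 panels.

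The classical heavy chains were among the steadiest members. H2-K1, which encodes the K heavy chain, was at 2206, 2287, 2090 and 1995 CPM in WT and at 1989, 2040, 2420 and 2294 CPM in KO. The lowest and the highest sample were both KO. Its log2 fold change was 0.03 (SE 0.09, 95% interval -0.16 to 0.22, edgeR adjusted p = 0.90). H2-D1, the D heavy chain, was at 1799, 1907, 1839 and 1854 CPM in WT and 1788, 1849, 2063 and 2029 CPM in KO. S7 and S8 stood above every WT sample, while S5 was the lowest of all. The log2 fold change was 0.06 (SE 0.08, interval -0.11 to 0.23, edgeR adjusted p = 0.71). B2m, which encodes the light chain shared by all class I molecules, was at 1299, 1531, 1376 and 1488 CPM in WT and 1213, 1307, 1576 and 1263 CPM in KO, with a log2 fold change of -0.09 (SE 0.10, interval -0.29 to 0.12, edgeR adjusted p = 0.65). The highest KO sample, S7, was above all WT samples, and the other 3 KO samples lay below 3 of the 4 WT samples. For all 3 chain genes the interval excluded a 1.5-fold change in either direction. H2-K1 and H2-D1 are close relatives: of the 43-base stretches of their main transcripts, 12.3% of H2-K1 and 18.8% of H2-D1 also occur in other genes, so part of their reads could be split or dropped by the counting. B2m had no shared stretch.

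Per kilobase of exon, B2m stood highest of the members in every sample, at 1655 ± 123 RPKM in WT and 1558 ± 189 RPKM in KO, where RPKM are the CPM divided by the length of all annotated exons of the gene. The heavy chains followed at 730 ± 43.7 RPKM for H2-K1 and 717 ± 17.2 RPKM for H2-D1 in WT, and their ranges over the 8 samples overlapped. Below them came Tapbp, Nlrc5, Tap1, Psmb8, Tap2, Psmb10 and Psmb9, from 121 ± 14.0 RPKM for Tapbp down to 32.6 ± 1.60 RPKM for Psmb9 in WT. In this order, the ranges of neighbours over the 8 samples did not overlap at 3 steps, between B2m and H2-K1, between H2-D1 and Tapbp and between Tap2 and Psmb10. The ranges of the other neighbours over the 8 samples overlapped, although Nlrc5 was above Tap1 and Tap1 above Psmb8 in each of the 8. This order depends on the exon length used. All annotated exons came to 5476 bp for Tap1 and 3381 bp for Psmb8, against 3911 and 1907 bases in their longest transcripts. Levels per base of transcript were not computed, so the order of close neighbours such as Tap1 and Psmb8 is not settled.

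None of the genes of the peptide transporter and the loading chaperone passed, and Tap1 had a higher mean in KO. Tap1, one subunit of the transporter that pumps peptides into the endoplasmic reticulum, was at 326, 378, 347 and 353 CPM in WT and 373, 390, 416 and 423 CPM in KO. S5 lay below the highest WT sample, S2, and the other KO samples above all WT samples. The log2 fold change was 0.19 (SE 0.09, interval 0.002 to 0.38, edgeR adjusted p = 0.20), and the exact two-sided permutation test gave p = 0.0571. Tap2, the other subunit, was at 194, 201, 192 and 202 CPM in WT and 207, 181, 200 and 235 CPM in KO. The WT samples lay close together and the KO samples on both sides of them, with a log2 fold change of 0.06 (SE 0.10, edgeR adjusted p = 0.77). Tapbp, which encodes tapasin, was at 369, 476, 437 and 476 CPM in WT and 413, 455, 479 and 485 CPM in KO. S1 was the lowest of all samples, and the log2 fold change was 0.06 (SE 0.10, edgeR adjusted p = 0.79). The neighbor Zbtb22 shares 149 bp of exon with Tapbp on the same strand and had 6.27% as many counts. Of the 43-base stretches of the longest transcripts, 21.95% of Tapbp and 13.59% of Tap2 also occur in other genes. The genes sharing most with Tapbp and Tap2, Gm19412 and Gm15821, had 573 and 13 counts.

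The 3 catalytic subunits of the immunoproteasome, which replace the constitutive catalytic subunits after exposure to interferon-gamma, all had lower means in KO, and none passed the test. Psmb10 had the largest difference of the 10 members. It was at 64.0, 68.3, 68.5 and 72.2 CPM in WT and at 34.9, 42.3, 54.2 and 62.7 CPM in KO. The groups did not overlap, but the KO samples spread over a wide range, with a coefficient of variation of 25.4% against 4.91% in WT, and S8 came within 2 CPM of the lowest WT sample. The log2 fold change was -0.49 (SE 0.16, interval -0.82 to -0.16, edgeR adjusted p = 0.0545), and the exact two-sided permutation p was 0.0286, the smallest that 4 against 4 samples can give. The adjusted p fell to 0.0343 with DESeq2 and to 0.0121 in edgeR without S8. Scaling by library size alone and a filter of at least 10 counts in total also moved it under 0.05. Without S5 the log2 fold change was -0.36 (edgeR adjusted p = 0.131).

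Psmb8 was at 180, 218, 183 and 212 CPM in WT and 147, 157, 198 and 183 CPM in KO. S5 and S6 were below all WT samples, and S7 and S8 lay within their range. The log2 fold change was -0.21 (SE 0.11, interval -0.45 to 0.03, edgeR adjusted p = 0.27). Psmb9 was at 125, 123.5, 114 and 115 CPM in WT and 94.1, 96.7, 100 and 119.6 CPM in KO. Here S5, S6 and S7 were below all WT samples and S8 among them. The log2 fold change was -0.22 (SE 0.10, interval -0.44 to 0.01, edgeR adjusted p = 0.22), with an exact permutation p of 0.0857. Psmb9 and Psmb10 shared no 43-base stretch with another gene. In Psmb9, the 212 bp shared with Tap1 lie on opposite strands, and whether the counting used strand is not stated.

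Nlrc5 had the largest difference in the other direction. It was at 865, 610, 790 and 605 CPM in WT and 890, 899, 810 and 927 CPM in KO. S1 reached the KO range and S2 and S4 lay far below it, so the WT coefficient of variation was 18.2% against 5.72% in KO. The log2 fold change was 0.30 (SE 0.11, interval 0.06 to 0.54, edgeR adjusted p = 0.108), and the exact permutation p was 0.0571. Without S1, and only then among the 8 fits that each left out 1 sample, Nlrc5 passed at 0.05 (log2 fold change 0.40, edgeR adjusted p = 0.0236). Beside this higher mean of the transactivator, the intervals of the heavy and light chain genes all included no change.

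**Figure D2:**
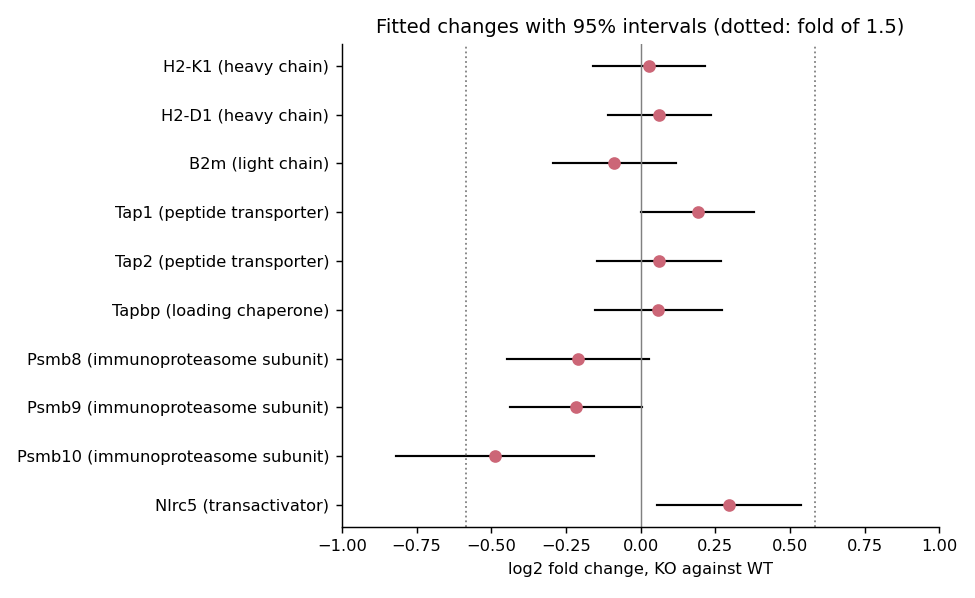
Points give the fitted log2 fold change of KO against WT for each member with its role, lines the 95% interval, and dotted lines a fold of 1.5 in either direction. Only the interval of Psmb10, -0.82 to -0.16, reaches past a dotted line.

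Ratios of 2 genes within a sample do not depend on the scaling between samples, and exact two-sided permutation tests were run on 7 of them. None of the 7 passed, with exact p of 0.0571 to 0.714 before and 0.30 or more after Benjamini-Hochberg adjustment, all with overlapping samples. The ratio of Psmb9 to Psmb6, the constitutive subunit that it replaces, was 2.32, 1.92, 1.95 and 1.69 in WT and 2.11, 2.98, 2.72 and 2.70 in KO. S5 lay in the WT range and the other KO samples above it (log2 difference 0.41, exact p = 0.0571, adjusted 0.30). The ratio of Psmb10 to Psmb7, the subunit it replaces, was 1.86, 2.61, 2.03 and 1.61 in WT and 1.5, 1.24, 1.83 and 1.84 in KO (log2 difference -0.33, exact p = 0.143, adjusted 0.333). Psmb8 exceeded its constitutive counterpart Psmb5 by 7.06-fold to 17.9-fold in counts in every sample, with a log2 difference between groups of -0.11 (exact p = 0.714). Tap1 and Tap2, which pair as 1 transporter, had a count ratio of 1.68 to 1.89 in WT and 1.80 to 2.16 in KO (exact p = 0.20). The heavy chains to each other and to B2m differed by -0.04 to 0.15 in log2 ratio between the groups (exact p = 0.0857 to 0.486).

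**Figure D3:**
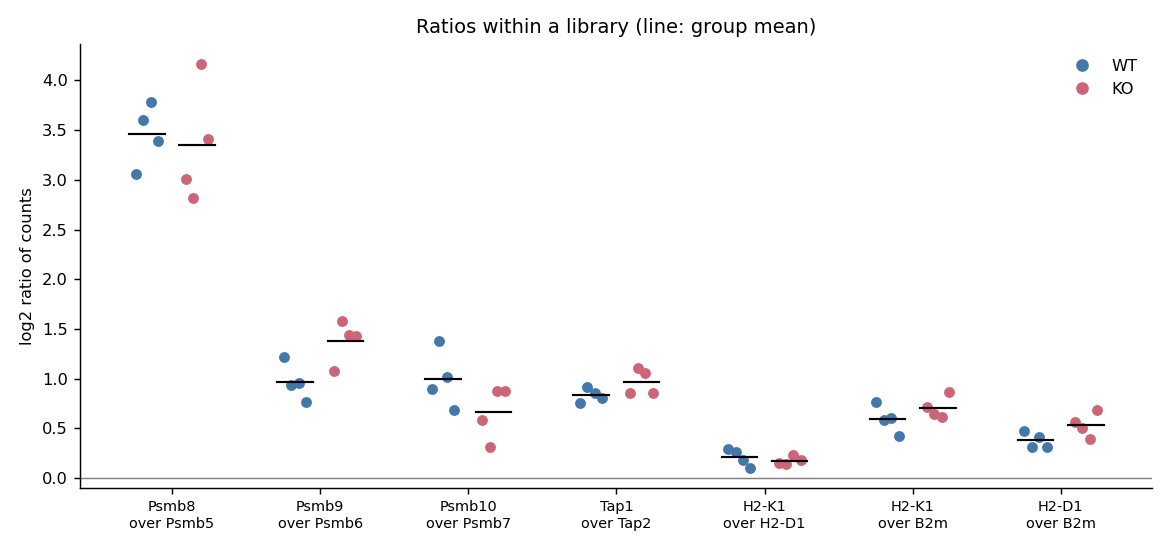
The y axis gives the log2 ratio of counts of 2 genes within a sample, with WT points in blue, KO points in red and a line at each group mean. WT and KO points overlap in all 7 ratios, and Psmb9 over Psmb6 has the widest distance between the means, 0.97 in WT and 1.38 in KO.

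Among the genes around the members, of 14 constitutive 20S subunits, 12 had a log2 fold change below 0, with a median of -0.14, and 1 passed the test. This was Psmb6, a catalytic subunit, at 61.1 ± 6.22 CPM in WT and 39.5 ± 5.99 CPM in KO (log2 fold change -0.63, edgeR adjusted p = 0.0068). It was called lower by the study's rule, which called 1.99% of all genes lower and 2.91% higher. At an adjusted p under 0.05, 4.98% of all genes were lower and 6.31% higher. The abundant subunits Psmb4 and Psmb1 had log2 fold changes of -0.13 and -0.17. None of 9 proteasome activators and assembly factors passed by edgeR's test, 2 of them with an unadjusted p under 0.05, against 3774 of all 15378 genes. Psme1, an interferon-inducible activator subunit that opens the proteasome, was at 207 ± 8.89 CPM in WT and 165 ± 20.9 CPM in KO (log2 fold change -0.33, edgeR adjusted p = 0.0526), and its groups did not overlap. Psme1 passed with DESeq2 (adjusted p = 0.0237) and in edgeR without S7 (adjusted p = 0.0348). Psme4 had a log2 fold change of 0.12.

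Among 13 loading chaperones and trimming peptidases, 1 passed. Npepps, a cytosolic aminopeptidase, rose from 59.5 ± 6.31 CPM in WT to 86.3 ± 1.99 CPM in KO (log2 fold change 0.53, edgeR adjusted p = 0.00415). Lnpep, an endosomal aminopeptidase, was at 783 ± 56.3 CPM in WT and 868 ± 44.5 CPM in KO, and the chaperone Calr at 500 ± 55.3 and 437 ± 27.2 CPM. Neither passed. Of 21 nonclassical class I genes, 14 were tested, 1 rose and 1 fell, with a median log2 fold change of -0.13. Cd1d1, which presents lipids, rose from 8.43 ± 1.44 to 14.1 ± 2.26 CPM (log2 fold change 0.74, edgeR adjusted p = 0.0453), but did not pass without S1, S2, S4, S6, S7 or S8. H2-T22, a ligand of some gamma delta T cells, fell from 234 ± 3.96 to 173 ± 23.4 CPM (log2 fold change -0.43, edgeR adjusted p = 0.0116). H2-Q7 and H2-Q6, near-identical Qa-2 genes whose reads the counting could split, had log2 fold changes of -0.14 and -0.17. H2-T22 also has close relatives, so its value is uncertain in the same way.

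Of 14 transcription factors of class I genes, 2 fell and none rose. Irf8, which binds interferon response elements and is also expressed by macrophages and dendritic cells, fell from 446 ± 59.0 to 267.5 ± 36.2 CPM (log2 fold change -0.74, edgeR adjusted p = 0.000419). Ciita, the relative of NLRC5 that drives MHC class II, fell from 9.98 ± 4.75 to 2.11 ± 0.491 CPM (log2 fold change -2.25, edgeR adjusted p = 0.00117). Both genes were lower in KO, as were the antigen-presenting cell markers, whose part in them was not tested. Across the WT samples only Ciita was highest in S3 (16.1 CPM), where the macrophage gene C1qa was also highest (97.1 CPM). Irf8 was at 441 CPM in S3 and highest in S4, at 530 CPM.

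Of 12 interferon receptors, kinases and signalling genes, 4 rose and 1 fell, with a median log2 fold change of 0.23, and 2 rose without S2, S3, S6 or S7. The list includes Ifng, which encodes interferon-gamma itself. Ifng was among the 4 that rose (log2 fold change 0.49, edgeR adjusted p = 0.0331), with overlapping groups, but not among the 2. Stat2 and Irf9, partners in the complex that binds interferon-stimulated response elements, rose from 108 ± 16.2 to 161 ± 19.0 CPM and from 100.5 ± 12.5 to 141.5 ± 9.31 CPM (log2 fold changes 0.57 and 0.49, edgeR adjusted p = 0.00547 and 0.00572). Ifngr2, the signalling chain of the interferon-gamma receptor, fell from 6.83 ± 5.45 to 0.659 ± 0.458 CPM (log2 fold change -3.32, edgeR adjusted p = 0.00269). Its level was low in both groups, S3 held 181 of the 380 WT counts, and without S3 the log2 fold change was -2.63. S3 was also the WT sample with the highest C1qa (97.1 CPM). The part of the lower antigen-presenting cell markers in the fall of Ifngr2 was not tested. Of 16 interferon-gamma response genes outside antigen presentation, 4 rose and 2 fell, with a median of 0.35, and 8 rose without S5. Gbp6, a guanylate-binding protein, rose from 62.3 ± 10.8 to 107 ± 17 CPM (log2 fold change 0.78, edgeR adjusted p = 0.00138). The chemokines Cxcl9 and Cxcl10 fell, from 19.1 ± 11.9 to 4.50 ± 3.83 CPM and from 16.8 ± 2.61 to 4.22 ± 1.53 CPM (log2 fold changes -2.10 and -1.98, edgeR adjusted p = 0.00769 and 0.00021), with -2.86 for Cxcl9 without S6. Macrophages are known to make both chemokines, and the part of the lower macrophage markers in their fall was not tested. Among the WT samples S3 had the highest Cxcl9 (36.2 CPM) and the lowest Cxcl10 (14.1 CPM). Whether these lists differ from the class I genes was not tested.

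**Figure D4:**
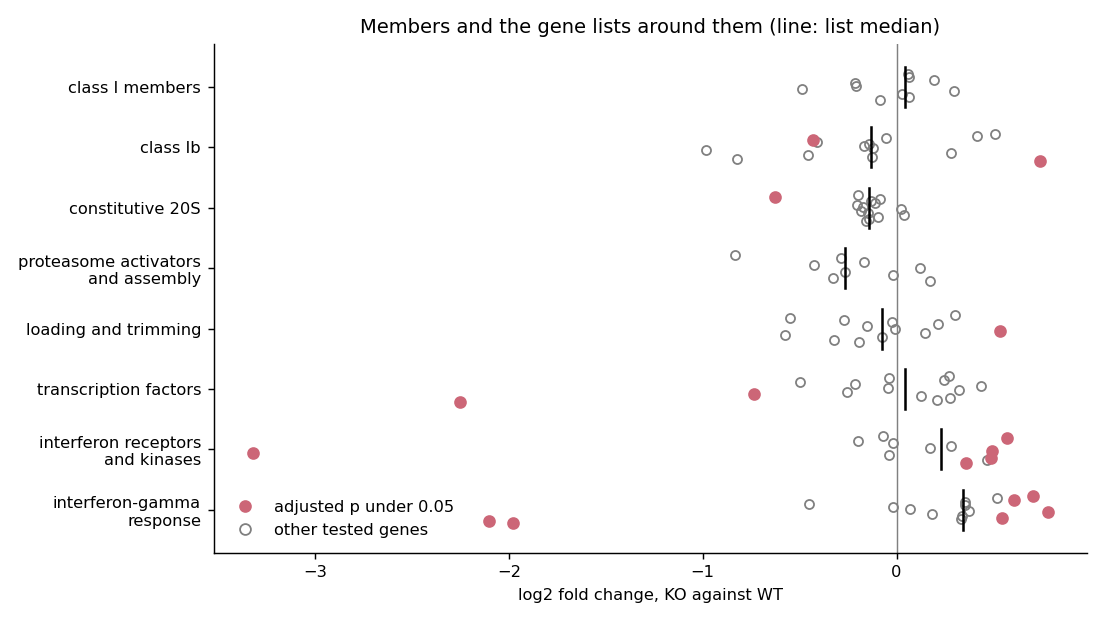
Each point is the fitted log2 fold change of a tested gene, KO against WT, filled red where the adjusted p was under 0.05, with a line at the median of each list. The 10 class I members in the top row lie between -0.49 and 0.30 with none filled, while 6 of the 16 interferon-gamma response genes in the bottom row are filled.

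Of the 18 antigen-presenting cell markers, 15 did not overlap between the groups, while Itgam, Ctss and Cd74 did. C1qa, C1qc and C1qb, complement genes of macrophages, fell (log2 fold changes -3.93, -3.67 and -3.61, edgeR adjusted p = 0.00014 or less), with -2.96 for C1qc without S3 and -4.34 without S6. The mean log2 CPM of 14 of these markers was 4.39 to 5.63 in WT and 2.04 to 2.90 in KO. With this score as a covariate none of the 10 members passed, 1 of them with an unadjusted p under 0.05, and the log2 fold change was -0.28 for H2-K1, -0.11 for H2-D1, -0.25 for B2m and Tap2, -0.02 for Tapbp, 0.05 for Tap1, -0.69 for Psmb8, -0.61 for Psmb9, -1.08 for Psmb10 and 0.46 for Nlrc5. In this fit the sign turned for H2-K1, H2-D1, Tap2 and Tapbp, and no gene of the lists around the members passed either. The SE grew from 0.09 to 0.26 for H2-K1 and from 0.16 to 0.46 for Psmb10. Kdm1a, Cd44 and Pecam1 did not pass here either (edgeR adjusted p = 0.52, 0.45 and 0.26). Not passing in this fit is therefore no sign of an unchanged level. Since the score and the groups do not overlap, what belongs to each cannot be told apart.

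**Figure D5:**
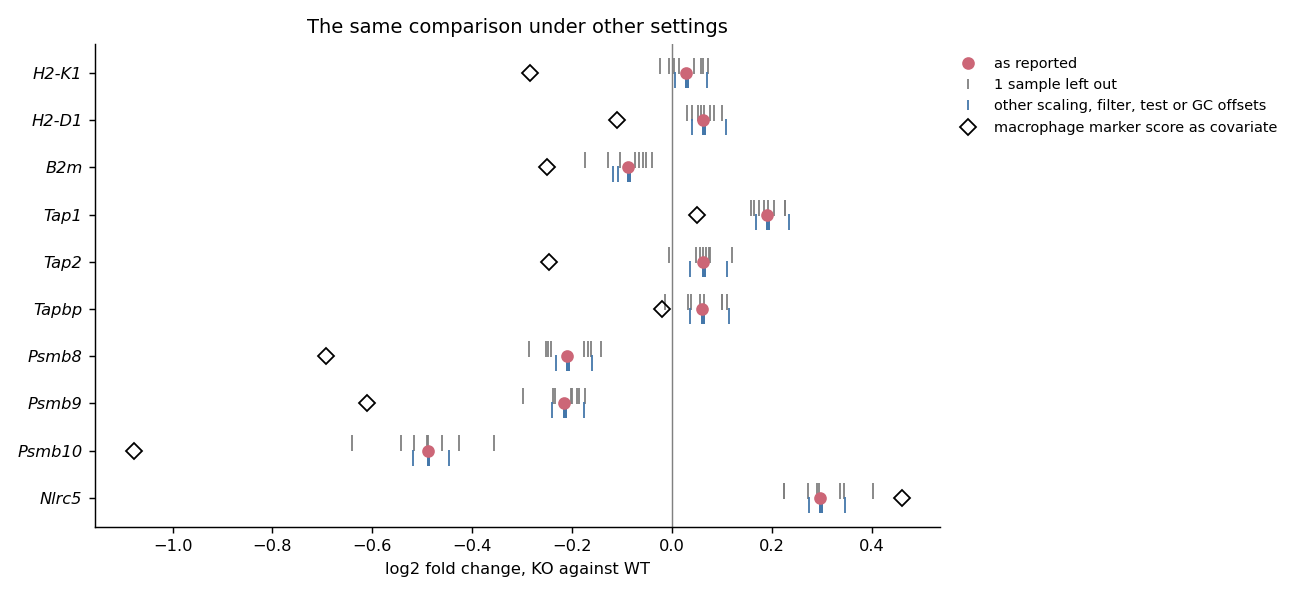
For each member, the red point is the reported log2 fold change of KO against WT, grey ticks are fits with 1 sample left out, blue ticks other scaling, filters, tests or GC offsets, and open diamonds the fit with the macrophage marker score as covariate. Ticks of Psmb10 run from -0.64 to -0.36 and those of Nlrc5 from 0.22 to 0.40, while the diamonds lie outside the ticks for all 10 genes.

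Markers of other cells that a sort could hold were low, at a sum of 27.7 to 47.0 CPM in WT and 79.3 to 94.4 CPM in KO over 21 genes, and 3 of the 7 tested rose. These were Klrb1c, Cd4 and Pecam1 (log2 fold changes 3.12, 1.65 and 1.48, edgeR adjusted p = 0.0338, 0.0161 and 5.2e-06), where Klrb1c did not pass without S2, S3, S5 or S7 and Cd4 not without S6. S4 held 16 of the 23 WT counts of Klrb1c, and without S4 its log2 fold change was 4.54. Pecam1 alone made up a large part of each sum, at 20.3 to 26.3 CPM in WT and 56.2 to 77.0 CPM in KO. Of the 7 tested, 2 had a log2 fold change below 0, Csf3r (-2.47) and Col1a1 (-0.70), and did not pass. The B cell marker Cd79a had 21 counts over the WT samples and 127 over the KO samples, without overlap (log2 fold change 2.68, edgeR adjusted p = 0.0773), and did not pass. Krt8 and S100a9 were at 0 in all samples of both groups. Of the markers of the sorted cells, Cd44 rose from 433 ± 39.7 to 785 ± 136 CPM and Cd8b1 fell from 346 ± 30.1 to 264 ± 23.9 CPM (log2 fold changes 0.86 and -0.39, edgeR adjusted p = 0.000107 and 0.0158), and Cd8b1 did not pass without S2 or S4. Ptprc and Cd8a had log2 fold changes of -0.05 and -0.27 and did not pass, though Cd8a did with DESeq2 (adjusted p = 0.0276) and in edgeR without S1 (adjusted p = 0.0339). The part of these markers in the levels of the class I genes was not tested.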

How the data were processed

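One table of 8 samples was used. Its values are raw gene counts without normalization, deposited by the authors after alignment with STAR to GRCm38 and counting with featureCounts. The strand and multi-mapping settings are not given in the sources used here. WT and KO columns were told apart by the sample names of the study's PCA plot.

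Counts of the 15378 genes that passed filterByExpr were fitted with edgeR 4.0.16 in R 4.3.3 (TMM factors, glmQLFTest, no covariate, Benjamini-Hochberg adjustment over all of them). Standard errors come from the fold change and its F, and 95% intervals use a t quantile with 16.5 degrees of freedom. Single members were tested on log2 CPM (prior count 2) and ratios on counts with 0.5 added, by exact two-sided permutation over 70 arrangements. Called means a fold above 1.5 with an adjusted p under 0.01, and passed, rose or fell mean an adjusted p under 0.05. The fit was tested on simulated data. Counts of samples within a group differed by more than sampling noise. Exon lengths and coordinates came from GENCODE M21, which matched 55154 of 55335 IDs.

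The members and lists were chosen with earlier results of these data known. Named were all members, Kdm1a, and from each list the 3 genes that passed with the largest absolute log2 fold change or, with fewer, those that passed and the 2 with the highest mean CPM. Krt8, S100a9, Cd79a, Csf3r, Col1a1, Itgam, Ctss, Cd74 and Ifng were named after their values were seen. A few items that this rule or the motif search covered are not reported here. The genes most alike were the 5 with the highest Pearson correlation to the members' mean log2 CPM after subtraction of group means, among genes with a mean log2 CPM above 4. Alternatives were DESeq2 1.42.0, other scaling, filters and pseudocounts, glmTreat, GC content offsets, a macrophage marker score as covariate, the whole promoter window and leaving out each sample.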

Additional observations from a re-analysis of the deposited data

How the results depend on the processing

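The count of members called stayed at 0 in all 16 alternative fits. The count of members that passed at an adjusted p of 0.05 went from 0 to 1 with scaling by library size alone, with a filter of at least 10 counts in total and with DESeq2, each time Psmb10. With 1 sample left out it was 0 to 1, with Psmb10 passing without S8 and Nlrc5 without S1. The cause was not tested. The median log2 fold change of the members was 0.04, and -0.25 with the macrophage marker score as covariate, where the values of H2-K1 (-0.28), H2-D1 (-0.11), Tap2 (-0.25), Tapbp (-0.020), Cxcl9 (1.79) and C1qc (0.94) turned sign without passing. C1qc is itself part of the score, so its turn in that fit was built in and is no result. Cxcl10 was at -2.67 and Ifngr2 at -0.24 in the covariate fit, also without passing. With 1 sample left out, values near 0 turned sign for Tapbp without S1, H2-K1 without S4 or S7 and Tap2 without S8, within ranges of -0.014 to 0.109 for Tapbp, -0.024 to 0.072 for H2-K1 and -0.0068 to 0.12 for Tap2. B2m, Tap1, Psmb8, Psmb9, Psmb10 and Nlrc5 kept their direction in all 16. Scaling by library size alone or a filter of at least 10 counts in total also took Cd1d1 past 0.05, and the former left 2 of 4 interferon receptor and signalling genes rising. Another pseudocount changed no call among the 7 ratios. No scaling moved the median of all genes by over 0.1 on the log2 scale. No paired analysis was possible because the columns carry no replicate numbers, so no replicate block could be fitted. With 4 samples a group, the exact test cannot give a p below 0.0286.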

Other observations

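Tap1 and Psmb9 start from the same stretch of chromosome 17 in opposite directions, and their means differed between the groups in opposite directions. The ratio of Tap1 to Psmb9 counts was 2.61, 3.06, 3.05 and 3.07 in WT and 3.96, 4.04, 4.16 and 3.54 in KO, so all KO samples were above all WT samples. The pair was chosen after its values were seen, so no test is given.

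Within the groups the members varied together only in part. Over the 8 samples after subtraction of group means, the Pearson correlation of log2 CPM was above 0 in 35 of the 45 pairs of members, with a median of 0.55. It was highest for H2-D1 with Psmb8 (0.92) and lowest for Tapbp with Nlrc5 (-0.77). Nlrc5 was below 0 with 8 of the other 9 members, Psmb9 (0.19) being the exception. The 5 genes outside the list most like the mean of the members were Dbnl (0.98), Cdk2ap2 (0.98), D17Wsu92e (0.98), Eif1 (0.97) and Gm10073 (0.97), out of 7189 genes compared. All these correlations share the libraries and their scaling.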
